A study of Mus musculus with 2 samples.

Results

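The cells described here are Dntt and Flt3 positive progenitors from mouse bone marrow, 197 of 9632 filtered cells, with 41 in the wild-type (WT) library and 156 in the Phf6 knockout (KO) library. They were chosen by counted RNA molecules (unique molecular identifiers, UMIs). A cell had to hold at least 1 UMI of Dntt and at least 1 of Flt3, no UMI of the B cell gene Cd79a, fewer than 10 UMIs of the neutrophil gene Mpo per 10000 UMIs, and not both 2 or more UMIs of Hlf and 2 or more of Mecom, which mark stem-like cells. Barcodes with fewer than 500 detected genes or more than 10% mitochondrial UMIs had been left out beforehand. These 6 genes therefore describe the choice and are no finding.

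In both groups the donor bone marrow cells carried a vector with the RUNX1-S291fs mutation and GFP, so that neither library is free of the RUNX1 mutant. GFP-positive donor cells were transplanted into recipient mice, and GFP-positive, lineage-negative (Lin-) cells were sorted from recipient marrow 8 weeks later for single-cell 3′ RNA sequencing. The groups differed in the genotype of the donor cells, WT or Phf6 KO, with 1 library each and no statement of how many recipients went into a library. With 1 library per genotype there is no error between animals, no test was made and no p-value is given. All intervals are 95% intervals of counting error alone.

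The WT library held 131667969 UMIs over 5287 barcodes and the KO library 120408100 over 5260, and filtered cells had medians of 25206 and 21982.5 UMIs. Members had a median of 24889 UMIs and 5097 genes in WT and of 18087.5 UMIs and 4579.5 genes in KO, so the KO members were shallower. Their median mitochondrial share was 2.80% and 2.94%. The libraries shared 10 barcodes, of which 1 belonged to a member.

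Lymphoid-primed multipotent progenitors are the marrow cells in which the first lymphoid genes are switched on before a B or T cell programme is fixed. Flt3 encodes a cytokine receptor tyrosine kinase whose signal these cells need, and Dntt encodes terminal deoxynucleotidyl transferase, the enzyme that adds untemplated bases to the joints of rearranging antigen receptor genes. Satb1 encodes a chromatin organiser, Cd27 a receptor of the TNF receptor family, and Il12a a subunit of interleukin 12. Such cells still hold RNA of stem and early myeloid genes, and they can also give rise to dendritic cells.

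Dntt (ENSMUSG00000025014) lies on GRCm38 chromosome 19 from 41029275 to 41059525 on the plus strand, and Flt3 (ENSMUSG00000042817) on chromosome 5 from 147330741 to 147400489 on the minus strand. The bases before the Dntt start site are shown because this gene defines the cells. Those of 4 interferon-induced genes are shown because these genes stood higher together in the KO cells described below. They were picked from the interferon list genes at least 1.5-fold higher in KO members whose window held the element searched below. Their matches were therefore fixed by the choice and are no finding. Among all 15 higher genes of that list in the promoter table, 6 held the element. Each is the 250 bases upstream of a start site in the RefSeq promoter table of GRCm38.p6, written 5′ to 3′ on the strand of the gene. Capitals mark matches to the core of the interferon-stimulated response element, searched as GAAA, any 2 bases and GAAA again, on either strand. The windows are chr19:41029025-41029274 (Dntt), chr4:156200819-156201068 (Isg15), chr11:58199306-58199555 (Igtp), chr7:104465194-104465443 (Trim30a) and chr3:142530086-142530335 (Gbp7). The 4 interferon windows were chosen to overlap no exon of GENCODE M21, and the Dntt window was not checked for this.
Dntt: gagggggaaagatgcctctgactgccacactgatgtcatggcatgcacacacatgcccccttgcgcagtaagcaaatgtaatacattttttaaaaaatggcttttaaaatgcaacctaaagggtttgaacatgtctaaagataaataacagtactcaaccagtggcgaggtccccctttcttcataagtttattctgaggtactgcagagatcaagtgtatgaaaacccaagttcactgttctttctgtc
Isg15: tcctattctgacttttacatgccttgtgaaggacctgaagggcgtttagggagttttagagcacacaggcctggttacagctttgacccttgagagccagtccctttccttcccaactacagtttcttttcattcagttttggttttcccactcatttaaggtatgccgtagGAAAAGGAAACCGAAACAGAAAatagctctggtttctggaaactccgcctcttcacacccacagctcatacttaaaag
Igtp: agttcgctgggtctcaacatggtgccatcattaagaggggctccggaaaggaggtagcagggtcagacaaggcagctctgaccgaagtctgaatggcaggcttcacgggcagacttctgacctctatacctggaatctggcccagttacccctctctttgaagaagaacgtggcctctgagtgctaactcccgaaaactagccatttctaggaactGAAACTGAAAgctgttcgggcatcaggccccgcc
Trim30a: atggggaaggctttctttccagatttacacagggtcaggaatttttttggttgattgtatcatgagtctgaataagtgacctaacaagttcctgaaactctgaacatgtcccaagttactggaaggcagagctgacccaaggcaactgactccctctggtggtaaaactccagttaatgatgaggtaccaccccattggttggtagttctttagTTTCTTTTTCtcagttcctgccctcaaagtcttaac
Gbp7: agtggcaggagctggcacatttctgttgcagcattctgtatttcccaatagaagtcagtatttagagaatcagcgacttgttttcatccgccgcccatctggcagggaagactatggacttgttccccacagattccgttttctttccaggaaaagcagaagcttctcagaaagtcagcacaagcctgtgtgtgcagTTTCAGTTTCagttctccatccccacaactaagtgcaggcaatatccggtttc
Isg15 held 3 overlapping matches that began 78, 72 and 66 bases before the start site. Igtp held 1 match at 34 bases, Trim30a 1 at 36 and Gbp7 1 at 53, both with the letters on the opposite strand. The Dntt window held no match. The element occurred in the 250-base windows of 3.46% of the 27025 gene symbols in the table. TGTGGT (RUNX), CAGCTG (E-box) and GAGGAAGT (PU.1), also searched on both strands, occurred in 15.9%, 14.7% and 2.79% of windows. A match describes letters and does not show a bound factor, and no match says only that the letters are not in this window.

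Cells that met the rule made up 0.872% of WT cells (41 of 4702, exact Clopper-Pearson interval 0.626 to 1.18) and 3.16% of KO cells (156 of 4930, 2.69 to 3.69). The share was 2.29 percentage points higher in the KO library (Newcombe interval 1.74 to 2.87). Since deeper cells show a UMI more often, each cell was also thinned to 5000 UMIs before the rule was applied. Then 13 of 4457 WT cells (0.292%) and 63 of 4725 KO cells (1.33%) met it, a difference of 1.04 points (0.686 to 1.43). Repeating the draw 10 times gave 11 to 19 WT cells and 63 to 83 KO cells, and the ranges did not overlap. These draws repeat the thinning of the same cells. Of the cells that met the rule after thinning, 8 WT and 46 KO cells were also members before it, since thinning takes Hlf, Mecom, Cd79a and Mpo UMIs away as well. Whether the difference in share would recur in other recipients was not tested.

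The 2 genes of the choice are described singly here. A Dntt UMI was found in 140 WT cells (2.98%) and 516 KO cells (10.5%), and a Flt3 UMI in 710 WT cells (15.1%) and 1070 KO cells (21.7%). After thinning the Dntt shares were 1.30% and 5.25% and the Flt3 shares 5.25% and 9.31%. Both UMIs together were found in 75 WT and 286 KO cells. Of these, 20 WT and 110 KO cells were set aside as stem-like, out of 414 WT and 612 KO stem-like cells in all. Cd79a set aside 6 and 7 cells, and Mpo 9 and 21.

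Free RNA in the droplets can give a UMI in a cell that does not express the gene. Among cells with at least 2 UMIs of Klf1, an erythroid regulator, a Dntt UMI was found in 3 of 279 WT cells (1.08%) and 1 of 99 KO cells (1.01%), at median depths of 65505 and 42436 UMIs. Among cells with at least 10 UMIs of the platelet gene Pf4 it was found in 6 of 711 (0.844%) and 11 of 595 (1.85%), at 25201 and 22731 UMIs. No cell of either kind met the whole rule, which allows shares of up to 1.08% and 3.03% among the Klf1 cells and 0.422% and 0.504% among the Pf4 cells. The shares of all filtered cells with a Dntt UMI lay above this background in both libraries, although the erythroid cells were sequenced more deeply. For Flt3 the shares were 3.58% and 4.04% among the Klf1 cells, 3.80% and 3.36% among the Pf4 cells and 11.6% and 9.18% among cells with at least 10 Elane UMIs per 10000 (median depths 32678 and 33044), against 15.1% and 21.7% of all filtered cells.

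**Figure D1:**
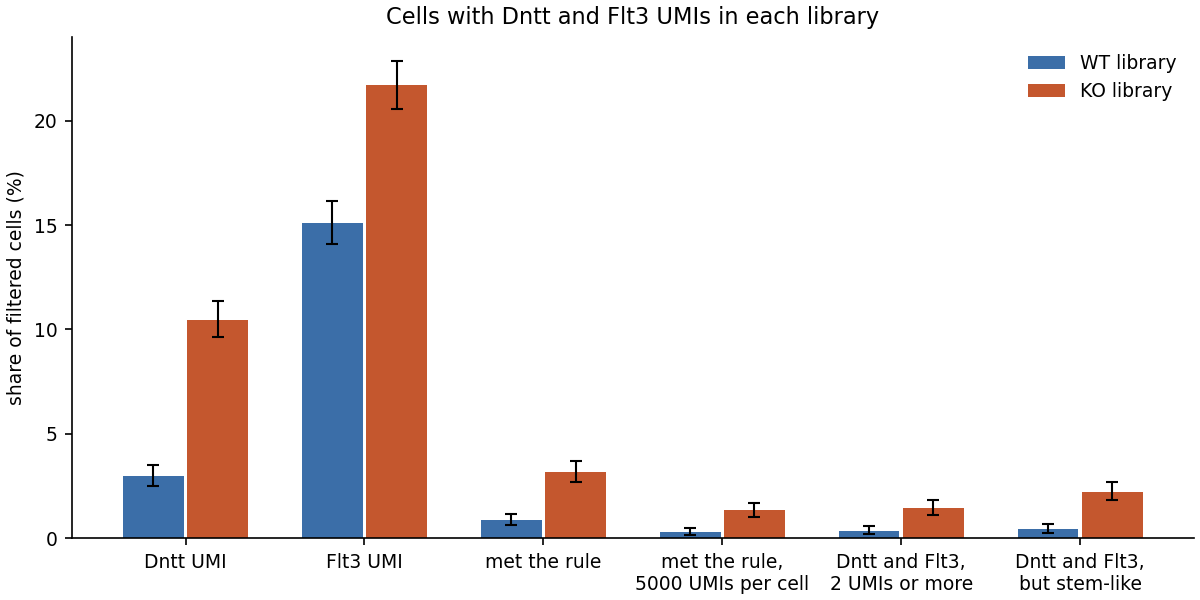
Share of filtered cells (%) in the WT and KO libraries that held a Dntt UMI, held a Flt3 UMI, met the rule, met it after thinning to 5000 UMIs, held at least 2 UMIs of each gene with the other conditions kept, or held both genes but were stem-like. Bars are shares and lines are exact 95% intervals of counting error. The KO bar was the higher one in each of the 6 pairs, at 3.16% against 0.872% for the rule itself.

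Many members stood at the edge of the rule. A single Dntt UMI placed 21 of 41 WT and 63 of 156 KO cells, and 8 WT and 20 KO cells held 1 UMI of each gene. The median was 1 Dntt UMI in WT and 2 in KO, and the most was 83 and 108. For Flt3 the medians were 3 and 2 UMIs and the most 29 and 20. At the Mpo limit the highest member stood at 9.21 (WT) and 9.96 (KO) UMIs per 10000, and the lowest cell left out by Mpo alone at 10.4 and 10.5. With at least 2 UMIs of each gene, 17 WT cells (0.362%) and 71 KO cells (1.44%) remained. Levels are given as CPM, the UMIs of a gene summed over the cells and divided by all their UMIs, on the usual CPM scale. In the pooled members Dntt was at 222 CPM in WT and 269 CPM in KO, and Flt3 169 and 179. Members held 258 of the 682 Dntt UMIs in WT cells and 906 of 2166 in KO cells, while Cd79a-positive cells held 251 and 182.

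**Figure D2:**
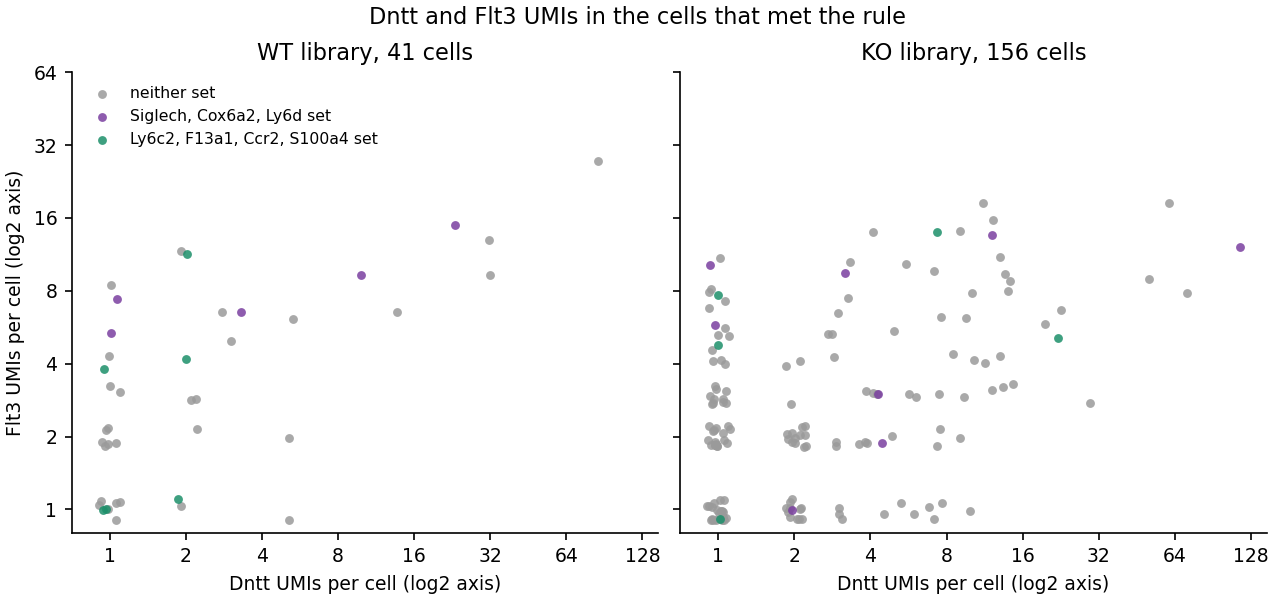
Dntt UMIs (horizontal, log2 axis) against Flt3 UMIs (vertical, log2 axis) in each of the 41 WT and 156 KO cells, with a small random shift so that equal counts can be seen. Colours mark the 2 small sets described in the text, and the cell of each library in both sets has the colour of the Siglech set. Most cells lie at few UMIs, and single cells reach 83 (WT) and 108 (KO) Dntt UMIs.

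The other 3 label markers, which the rule did not use, stood above the other cells of the same library. Satb1 was at 145 CPM in WT and 192 CPM in KO members, against 26.4 and 44.5 CPM in the other cells. Cd27 was at 109 and 117 CPM against 37.8 and 35.5, and Il12a at 95.4 and 74.8 CPM against 41.7 and 50.1. A Satb1 UMI was found in 33 of 41 WT and 124 of 156 KO members (80.5% and 79.5%). At 5000 UMIs per cell the Satb1 shares were 46.3% and 51.3%, against 12.5% in the other WT cells. In stem-like cells Satb1 was at 18.7 CPM (WT) and 47.9 CPM (KO), below the members. Cd27 stood higher there than in members, at 128 CPM in both libraries. At 5000 UMIs per cell a Cd27 UMI was found in 49.9% of stem-like cells against 36.6% of members in WT, and in 48.9% against 50.6% in KO. Il12a was at 69.9 CPM in WT stem-like cells and nearly at the members' level in KO. These comparisons are descriptions, since the cells were picked from the same counts.

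Across all genes with at least 20 CPM in the higher group, 94 of 6629 (1.42%) were at least 2-fold higher in members than in other cells in both libraries, and 155 (2.34%) were at least 2-fold lower. Besides Dntt, Flt3 and Satb1, the 12 highest included Tox, an HMG-box factor of T cell development (log2 ratio 1.97 in WT and 1.88 in KO). They also included Egfl7, a secreted factor known from endothelium (2.05 and 1.99), Gimap6, a GTPase of lymphocyte survival (1.95 and 1.93), and Adgrl4, an adhesion G protein-coupled receptor (1.77 and 1.79). Aff3 stood at 1.80 and 1.77, Ccser1 at 2.21 and 1.97, and Ptprcap, a CD45-associated protein of lymphocytes, at 1.76 and 1.85. Cox6a2 and Ly6d were also among the 12, but their UMIs sat in few cells: Ly6d in 3 WT and 8 KO cells, and Cox6a2 in 5 and 11. All these ratios are against the pooled other cells. Against stem-like cells the distance was smaller for Tox, at 35.6 and 80.5 CPM there and 50.7 and 122 CPM in members.

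Of the lymphoid priming list, 12 genes were measured besides Dntt and Flt3, which the rule fixed. Of these 12, Satb1, Cd27 and Wfdc17 were at least 2-fold higher than in other cells in both libraries. Mef2c, a factor of early lymphoid choice, stood at 766 CPM in WT and 737 CPM in KO members against 356 and 433 in other cells. Ikzf1, which encodes Ikaros, was at 315 and 293 CPM against 169 and 187. Notch1, a receptor that directs T cell fate, was at 35.2 and 30.6 CPM against 10.9 and 15.4. In the members outside the small sets described below it was at 20.01 and 24.32 CPM. At 5000 UMIs per cell, 7.32% of WT and 7.69% of KO members held a Notch1 UMI, against 5.8% and 7.09% of other cells. Against stem-like cells 6 of the 12 genes were past 2-fold in both libraries, where 1.06% of all 6723 genes were. The other reference was cells with a UMI of Cpa3 and of Angpt1 but none of Dntt or Cd79a, under the same Mpo limit and not stem-like. Against these 5 of the 12 were, where 1.18% of 6708 genes were. There Lsp1, a leukocyte actin-binding protein, was 2.86 higher in WT and 1.76 in KO on the log2 scale, and Irf8, a factor of dendritic and monocytic cells, 3.39 and 2.58. Most Irf8 UMIs lay in the small sets described below, and in the other members Irf8 was at 38.8 and 80.4 CPM against 25.9 and 32.4 CPM in this reference. In those members Lsp1 was at 63.8 and 83.8 CPM, against 20.7 and 35.6 in this reference and 67.3 and 84.9 in non-members. In the other direction, 7 of 14 stem cell genes other than Hlf and Mecom were at least 2-fold lower than in stem-like cells, where 1.71% of all genes were. Stem-like cells were defined by stem cell genes and set aside by the rule, so the choice bears on this count and it is no finding. Against cells with Cpa3 and Angpt1, 7 of 8 erythroid and 7 of 7 megakaryocyte genes were lower, where 2.3% of all genes were.

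Several defining genes of committed lymphocytes had no or few UMIs, and Cd79a was excluded by the rule. Pax5, Rag1 and Cd3e had no UMI in any member, and Ebf1, the early B cell factor, had 2 UMIs in WT and 1 in KO. Rag2, a recombinase subunit, had 5 UMIs in 3 WT cells and 17 UMIs in 15 KO cells (7.32% and 9.62% of members, against 1.39% and 1.45% of other cells). At 5000 UMIs per cell Rag2 was found in 0 of 41 WT members, which allows a share of up to 7.32%, and in 4 of 156 KO members. Il7r, the interleukin 7 receptor of lymphoid commitment, was found in 4 of 41 and 6 of 156 cells, and Vpreb1 in 2 and 4. Of the 18 genes in the T or NK list none reached a mean of 20 CPM. Of the B list 3 of 16 did, namely Cd79b, Ighm and Ly6d. Cd79b was at 20.6 CPM in WT and 33.2 CPM in KO members against 35.9 and 39.3 in other cells, and Ly6d, in 3 and 8 cells, at 149 and 126 CPM against 14.2 and 6.70. Ighm stood at 145 CPM in WT and 87.5 CPM in KO members, against 1571 and 155 CPM in other cells, and the plasma cell gene Jchain at 13.8 and 0.593 CPM against 790 and 86.4. The part of free plasma cell RNA in the Ighm UMIs of members was not tested.

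Several genes of multipotent cells stood above the pooled other cells and below the stem-like cells. Angpt1, which encodes angiopoietin 1, was at 1343 CPM in WT and 1279 CPM in KO members against 733 and 835 in other cells and 2153 and 2202 in stem-like cells. Adgrl4 was at 984 and 1638 against 288 and 473 in other cells and 1206 and 1934 in stem-like cells. Cd34 was at 373 and 393 CPM against 188 and 211 in other cells and 418 and 402 in stem-like cells. Kit, the stem cell factor receptor, was at 152 and 227 against 91.9 and 115 and against 211 and 282. Hlf was at 134 CPM in both although the rule limits it, since only cells with Mecom as well were set aside. Genes of the granulocyte, erythroid and megakaryocyte lists mostly stood below the other cells. Elane, a neutrophil granule protease, was at 72.2 and 30.3 CPM against 2262 and 1660, and Pf4 at 56.7 and 65.0 against 1938 and 1968. Klf1 had no UMI. Of the lists, 5 of 7 primary granule genes besides Mpo, 7 of 8 erythroid genes and 6 of 7 megakaryocyte genes were at least 2-fold lower than in other cells in both libraries, where 2.34% of all genes were. The Mpo limit leaves granule-rich cells among the other cells, so the choice bears on the granule count. Against cells with Cpa3 and Angpt1, under the same Mpo limit, none of 6 granule genes besides Mpo was past 2-fold in both libraries (medians 0.60 and -0.31). Dendritic and monocyte genes were different when set against other cells. Of 6 dendritic genes 4 were at least 2-fold higher in both libraries, beside 1.42% of all genes (medians 1.88 and 1.41). None of 9 monocyte genes was past 2-fold in both libraries (medians -0.28 and -1.86). In the members outside the small sets described below, Siglech had no UMI and Cox6a2 was at 0 and 1.69 CPM. Irf8 was there at 38.8 and 80.4 CPM against 130 and 143 in other cells. Tcf4 was at 298 and 327 against 117 and 155, and Runx2 at 335 and 344 against 136 and 171. In stem-like cells Tcf4 was at 206 and 291 CPM and Runx2 at 261 and 346, so Runx2 was not higher in these KO members. In cells with Cpa3 and Angpt1 Tcf4 was at 146 and 183 CPM and Runx2 at 167 and 190.

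**Figure D3:**
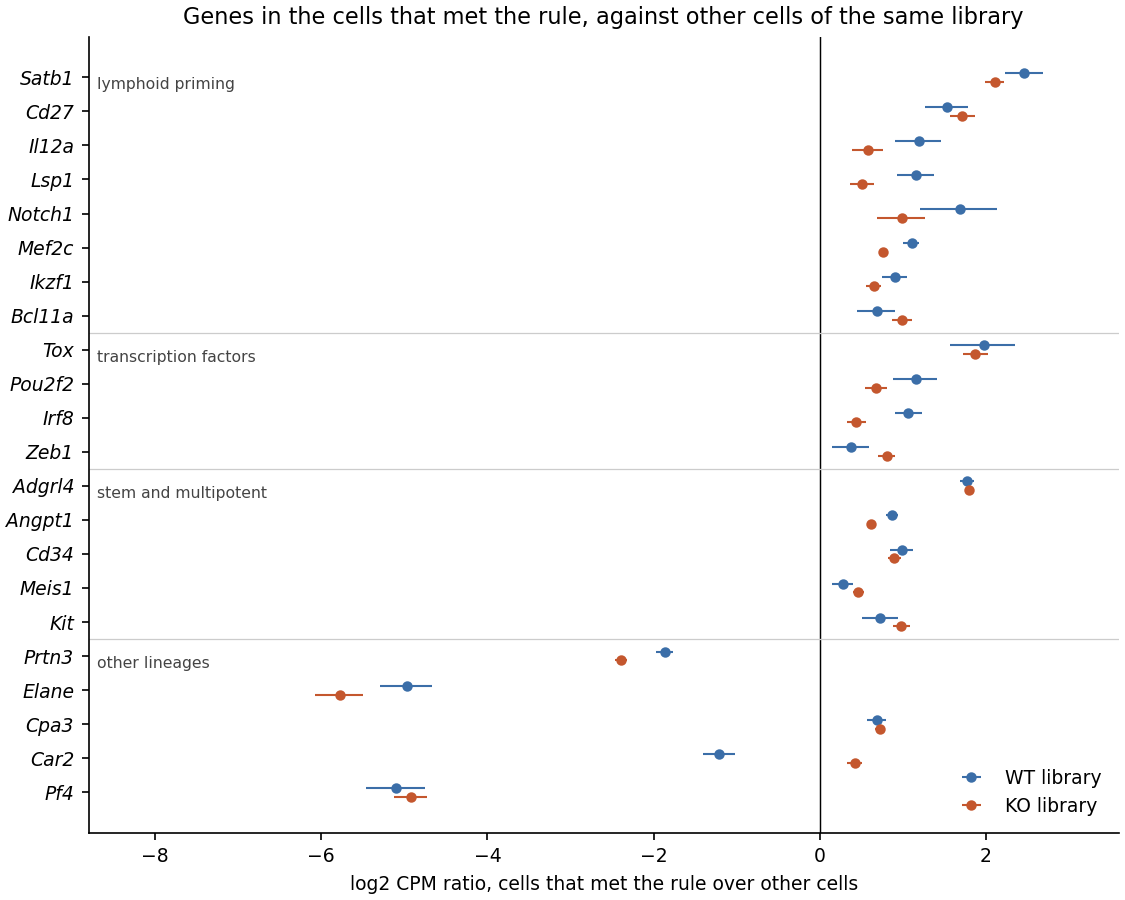
Log2 ratio of CPM in the cells that met the rule over other cells of the same library, for 22 genes chosen for display after their values were seen, in WT and KO. Lines are exact 95% intervals of counting error. Lymphoid priming genes and the early progenitor genes Adgrl4, Cd34 and Kit lie above 0 in both libraries, Elane and Pf4 near -5 or below, and Car2 on opposite sides of 0.

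The members were not uniform, and 2 small sets were seen in the data and then cut by summed UMIs, so their definitions were chosen after the values were seen. Cells with at least 10 UMIs of Siglech, Cox6a2 and Ly6d together numbered 5 of 41 in WT and 8 of 156 in KO. These genes mark plasmacytoid dendritic cells and their precursors. Tcf4, a factor of that lineage that was not used for the cut, was at 1886 CPM (WT) and 2249 CPM (KO) in the set against 298 and 327 CPM in the members of neither set. Irf8 was at 1550 and 1714 CPM against 38.8 and 80.4. Il7r UMIs also lay mostly here, at 63.1 and 336 CPM, and none was found in the members of neither set. Adgrl4 was at 35.1 and 138 CPM in this set against 1327 and 1825.

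Cells with at least 20 UMIs of Ly6c2, F13a1, Ccr2 and S100a4 together, genes of monocytes and their progenitors, numbered 7 of 41 in WT (17.1%, interval 7.15 to 32.1) and 6 of 156 in KO (3.85%, 1.42 to 8.18). Lyz2, the lysozyme gene of myeloid cells, was at 4111 and 2353 CPM in this set against 109 and 116 CPM in members of neither set. One WT and 1 KO cell met both cuts. The 30 WT and 143 KO members of neither set (73.2% and 91.7%) had no Siglech UMI, Ly6c2 at 2.50 and 6.76 CPM, and Angpt1 at 1712 and 1438 CPM. The barcodes with the highest doublet scores included 2 WT and 7 KO members, and the part of doublets in the small sets was not tested.

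Within each library, the bin of cells with most Dntt UMIs stood lower in stem and mast cell genes and higher in several lymphoid genes than the bin with 1. From 1 to 10 or more Dntt UMIs, Meis1, a homeobox gene of stem cells, went from 554 to 204 CPM in WT and from 626 to 274 in KO. Hlf, which the rule limits, went from 219 to 5.11 and from 164 to 56.4. Cpa3, a mast cell protease gene, went from 790 to 5.11 and from 906 to 96.2. In the other direction, Satb1 went from 103 to 317 CPM in WT and from 148 to 257 in KO, Notch1 from 22.8 to 81.7 and from 15.8 to 56.4, and Mef2c from 631 to 940 and from 575 to 1140. Cd27 kept to between 86.8 and 137 CPM in all bins.

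The bins held 21, 11, 4 and 5 WT cells and 63, 48, 21 and 24 KO cells, so the upper WT bins rest on few cells. In the WT bin of 5 to 9 UMIs Cpa3 was back at 789 CPM. The WT median depth was 21366 UMIs in the lowest bin and 38440 in the highest, and the KO median 18991 and 22869. The highest WT bin included the cell, with 70519 UMIs, that met both cuts of the small sets. Cells of these sets were also in the highest KO bin. The part of depth and of these cells in the differences between bins was not tested. The share of members in the highest bin was 12.2% in WT and 15.4% in KO, and the difference of 3.19 points had an interval from -11.0 to 12.6.

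**Figure D4:**
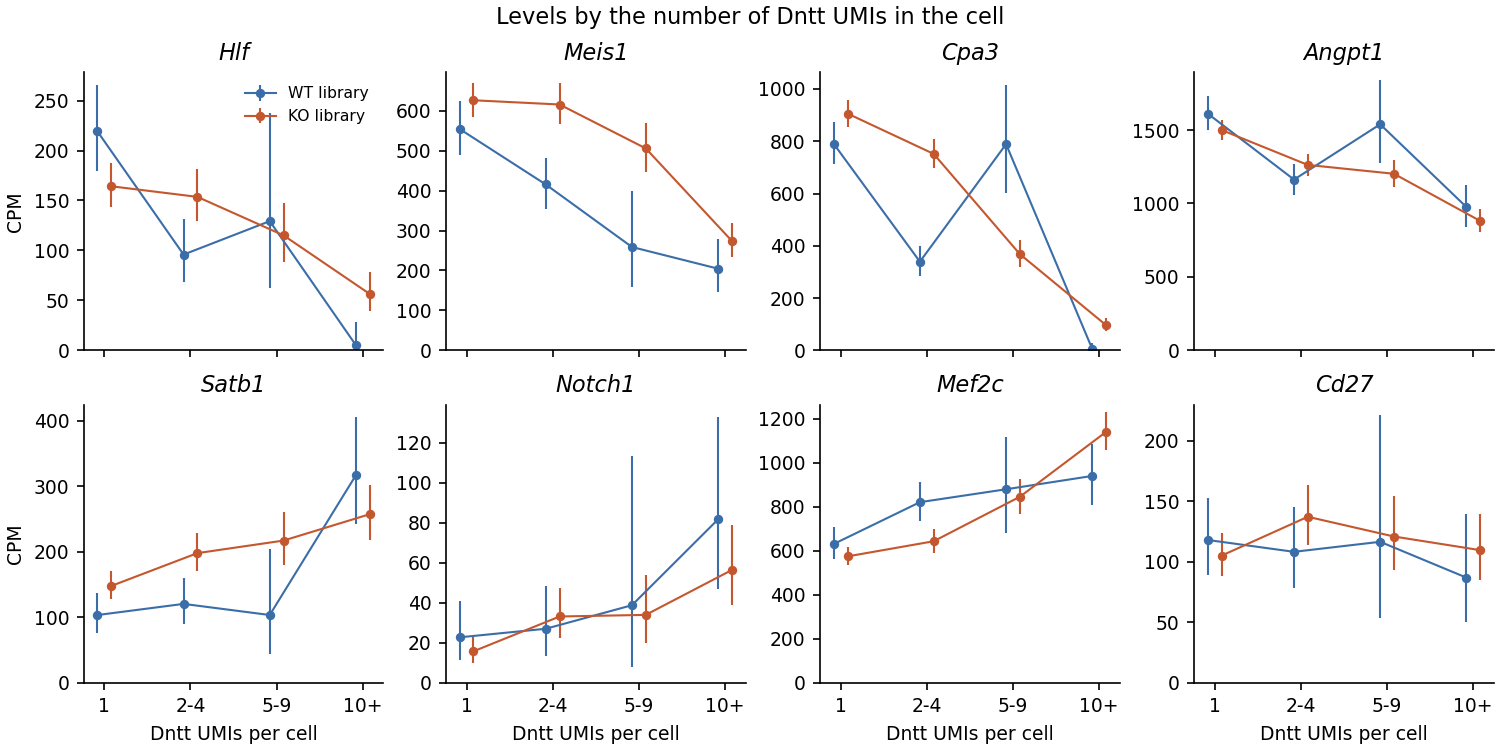
Level (CPM) of 8 genes in the cells with 1, 2 to 4, 5 to 9 and 10 or more Dntt UMIs, in WT and KO. Points are levels of pooled cells and lines exact 95% Poisson intervals of counting error. Meis1, Cpa3 and Hlf, which the rule limits, are lowest and Satb1, Notch1 and Mef2c highest in the last bin of both libraries, and Cd27 lies between 86.8 and 137 CPM throughout.

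KO and WT members were then compared with each other, since the rule did not use the genotype. Phf6, the targeted gene (ENSMUSG00000025626, chromosome X, 52912266 to 52956943), was at 65.3 CPM in WT and 30.9 CPM in KO members, a log2 ratio of -1.08 (-1.52 to -0.64). In the other cells it was -1.04. The labels do not name the deleted part, and a 3′ count does not check it. Runx1 was at 1147 and 1525 CPM (0.41), with the same ratio in other cells, and the part of vector transcripts in it was not tested.

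Of 6512 genes with a mean of at least 20 CPM, 441 (6.77%) were at least 1.5-fold higher in KO members and 288 (4.42%) at least 1.5-fold lower, with a median log2 ratio of 0.03. In the other cells, whose sums hold far more UMIs, 1.47% were higher and 0.906% lower. The members' sums were 1163495 UMIs in WT and 3370659 in KO. In cells with Cpa3 and Angpt1, 2.05% of 6688 genes were higher and 0.718% lower.

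Interferon-induced genes were higher in KO members. Of 25 measured genes of the list 18 were at least 1.5-fold higher and none was 1.5-fold lower, with a median log2 ratio of 0.84, and the background was 6.77% of all genes higher. Several, such as Iigp1, Isg15, Irf7 and Ifih1, reached the minimum mean of 20 CPM through their KO level, and at a minimum of 50 CPM 6 of 10 genes were higher, with a median of 0.63. In other cells 12 of 21 were higher, with a median of 0.61, and in cells with Cpa3 and Angpt1 13 of 23 were, with a median of 0.68. Ifitm1, an antiviral membrane protein gene, had the highest ratio at 50 CPM or more, with 31.8 CPM in WT and 142 CPM in KO members (2.16, interval 1.68 to 2.68). It was found in 17 of 41 WT and 103 of 156 KO members. Plscr1, an interferon-induced scramblase, was at 49.0 and 154 CPM (1.65, 1.26 to 2.08). For both, the ratio was larger than in other cells, by 1.14 (0.65 to 1.62) for Ifitm1 and by 1.19 (0.79 to 1.58) for Plscr1. In stem-like cells Ifitm1 was at 66.8 CPM in WT and 163 CPM in KO, and Plscr1 at 161 and 229. In cells with Cpa3 and Angpt1 Ifitm1 was at 118 and 204 CPM and Plscr1 at 131 and 183. The levels of members lay below both of these groups in each library.

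Isg15, a ubiquitin-like modifier, was at 9.45 CPM in WT and 46.0 CPM in KO members (2.28), with 30.3% of its KO UMIs in 1 cell. Irf7, the amplifier of type I interferon production, was at 9.45 and 38.9 CPM (2.04), with 32.1% of its KO UMIs in 1 cell. Ddx58 and Ifih1, cytosolic RNA sensors, were at 16.3 and 47.5 CPM (1.54) and at 13.8 and 30.3 CPM (1.14), found in 82 and 65 KO cells. For Ifih1 43.8% of the 16 WT UMIs lay in 1 cell. Iigp1, an immunity-related GTPase, had 2 UMIs in 1 WT cell and 143 UMIs in 45 KO cells, a log2 ratio of 4.63 with an interval from 2.75 to 7.68. Igtp, Trim30a and Gbp7, whose upstream bases are shown above, had ratios of 0.92, 0.84 and 0.66.

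Some genes of the list had ratios below 0. Ifi27l2a and Bst2 had ratios of -0.08 and -0.28, and Bst2 UMIs were concentrated in the Siglech set at 1122 and 1544 CPM. Per cell at 5000 UMIs, the summed list had a median of 7 UMIs in WT and 9 in KO members, with upper quartiles of 12 and 14. At least 20 list UMIs were found in 3 of 41 and 21 of 156 members (7.32% and 13.5%), a difference of 6.14 points with an interval from -6.77 to 14.0. Among the 20 measured list genes with an entry in the promoter table, 9 held the response element, and among the 15 of these that were past 1.5-fold, 6 did.

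MHC class II presents peptides to helper T cells, and its genes that stood higher in KO members were those of the peptide-binding chains and the invariant chain. H2-Aa was at 19.8 CPM in WT and 73.6 CPM in KO members (1.90, 1.28 to 2.58), H2-Eb1 at 15.5 and 48.1 (1.63) and the invariant chain Cd74 at 42.1 and 110 (1.39). H2-Ab1 was at 67.9 and 129 CPM (0.92). H2-DMa and H2-DMb1, which load peptides, had ratios of -0.04 and 0.19. The list's median was 0.92 over 7 genes, 4 of them at least 1.5-fold higher, beside 6.77% of all genes. H2-Aa and H2-Eb1 reached the minimum mean of 20 CPM through their KO level. At a minimum of 50 CPM 2 of 3 genes were higher, with a median of 0.92. In other cells the median was 0.26 and in cells with Cpa3 and Angpt1 0.36. For Cd74 the ratio in other cells was -0.01, and the ratio in members exceeded it by 1.39 (0.96 to 1.82). The rise was not particular to members, since stem-like cells had Cd74 at 41.8 CPM in WT and 84.4 CPM in KO. In cells with Cpa3 and Angpt1 it was at 21.3 and 37.1 CPM. A Cd74 UMI was found in 9 of 41 and 64 of 156 members, and 1 WT cell held 42.9% of the WT UMIs. With the rule applied after thinning, which took other cells of both libraries (13 WT and 63 KO), 0 of 8 genes were higher and 5 lower, with a median of -1.09. More of all genes were then past 1.5-fold in each direction, as counted below. The cause of the turned direction was not tested.

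The lymphoid priming list without Dntt and Flt3 had a median ratio of -0.08 over 12 genes, with 1 past 1.5-fold higher, and with both the median was 0.01. That gene was Wfdc17, a secreted protein with a WAP domain, at 36.1 and 90.2 CPM (1.32). The rise of Wfdc17 was not particular to members. It was at 12.8 and 35.3 CPM in other cells, 8.39 and 20.4 in stem-like cells and 4.09 and 16.8 in cells with Cpa3 and Angpt1. Satb1 had a ratio of 0.40 (0.15 to 0.65), Mef2c -0.06, Ikzf1 -0.10 and Il12a -0.35. Of 21 lymphoid transcription factors 3 were past 1.5-fold, all higher, beside 6.77% of all genes. The list's median was 0.24, against 0.26 in other cells, where 4 of 24 were higher. The 3 genes were Tox at 50.7 and 122 CPM (1.26), Pbx3 at 83.4 and 171 (1.03) and Zeb1 at 144 and 236 (0.71). Tox UMIs were found in 13 of 41 and 76 of 156 members. Tox was also higher in KO among the other cells, at 12.9 and 33.1 CPM. Of the 7 measured genes of antigen receptor assembly besides Dntt, Prkdc (0.70) and Xrcc4 (0.65), which join broken ends, were higher and Hmgb2 (-0.78) was lower.

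Among 23 measured genes of FLT3 and cytokine receptor signalling besides Flt3, 6 were past 1.5-fold higher, beside 6.77% of all genes, and none lower, with a median of 0.33. In other cells the whole list, Flt3 included, had a median of 0.33 with 4 of 22 higher, and in cells with Cpa3 and Angpt1 a median of 0.29 with 4 of 22 higher. Pim1, a kinase induced by STAT factors, was at 220 CPM in WT and 491 CPM in KO members (1.16, 0.97 to 1.35). Tgfbr1, a TGF-beta receptor, was at 47.3 and 104 (1.14), and Il2rg, the shared chain of lymphoid cytokine receptors, at 44.7 and 75.7 (0.76). Csf3r, Csf2rb and Stat3 had ratios of 0.73, 0.69 and 0.64. For Pim1 the ratio exceeded that of other cells by 0.46 (0.27 to 0.66), and for Tgfbr1 by 0.07 (-0.35 to 0.48), an interval that includes 0. Of the Notch list Mfng was the only gene of 9 past 1.5-fold (0.67), and Notch1 itself was at -0.21.

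Of the stem cell list 11 genes were measured besides Hlf and Mecom, with 2 higher, 1 lower and a median of 0.34, beside 6.77% and 4.42% of all genes. In other cells 3 of 14 of the whole list were higher, with a median of 0.21. Adgrl4 was among the higher ones at 0.74 (0.64 to 0.83). Hoxa9, a homeobox gene of stem cells and leukaemia, was lower, at 43.0 and 17.8 CPM (-1.27). Other genes among the 12 highest were Abhd17b (200 and 490 CPM), Nceh1 (45.6 and 107), Commd10 (34.4 and 79.8), Camk2a (31.8 and 71.5) and Nxph1 (46.4 and 107). For Nxph1, 66.7% of the WT UMIs came from 1 cell. Abhd17b was also higher in KO among other cells (144 and 250 CPM) and stem-like cells (216 and 496 CPM). Of the BCL2 family's 8 measured genes and of the 23 Myc target genes none was past 1.5-fold.

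Cell cycle genes were lower in KO members. Of 38 measured G2/M genes 28 were at least 1.5-fold lower and none higher, with a median of -0.73, against a background of 4.42% of genes lower and a median of -0.09 in other cells, where none of 37 was past the fold. In cells with Cpa3 and Angpt1 none of 40 was lower, and the median was -0.03. Top2a, the topoisomerase of dividing cells, was at 455 CPM in WT and 262 CPM in KO members (-0.80), Mki67 at 281 and 174 (-0.69) and Ube2c, a mitotic ubiquitin-conjugating enzyme, at 159 and 73.6 (-1.11). Cdk1 was at 128 and 66.2 CPM (-0.95). Of 41 G1/S genes 8 were lower and none higher, with a median of -0.33. Pclaf, a replication fork protein, was among the 12 lowest genes, at 290 and 109 CPM (-1.41). Hist1h3c (-1.36) was another, and its reads may be shared with near-identical histone copies.

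The G2/M genes were also summed per cell. At 5000 UMIs per cell, at least 20 G2/M UMIs were found in 12 of 41 WT members (29.3%, 16.1 to 45.5) and 25 of 156 KO members (16.0%, 10.6 to 22.7). The difference of -13.2 points had an interval from -29.2 to 0.136, which includes 0. In other cells the shares were 22.9% and 19.4%. The median was 10 UMIs in WT and 5 in KO members. With Mpo below 5 the list had 6 of 37 genes lower and 2 higher (median -0.32), and with Dntt bins weighted alike 4 of 37 lower and 1 higher (-0.25). With the rule applied after thinning, 0 of 32 were lower and 15 higher (0.55). Over all genes, more were past 1.5-fold in each direction after thinning, as counted below. The count of lower G2/M genes was smaller under all 3 settings and its direction turned after thinning, and the cause was not tested.

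Genes of monocytes stood lower in KO members, and most of their UMIs lay in the small sets. Ly6c2 was at 165 CPM in WT and 19.0 CPM in KO members (-3.12), and 1 WT cell held 50% of its UMIs. Lyz2 was at 1108 and 294 CPM (-1.91), Slpi at 312 and 88.7 (-1.81), S100a4 at 144 and 40.1 (-1.84) and F13a1 at 262 and 101 (-1.37). Reads of Ly6c2 may be shared with its close copy Ly6c1. Of 8 measured monocyte list genes 4 were lower, beside 4.42% of all genes, with a median of -0.79. The Ly6c2 and Siglech sets made up 11 of 41 WT and 13 of 156 KO members. Without them Ly6c2 was at 2.50 and 6.76 CPM, Lyz2 at 109 and 116, and the list's median over 4 genes was 0.40. Primary granule genes besides Mpo had a median of -0.74 with 3 of 6 lower. With Mpo, the median was Mpo's own ratio of -0.39, and without those sets it was -0.15.

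**Figure D5:**
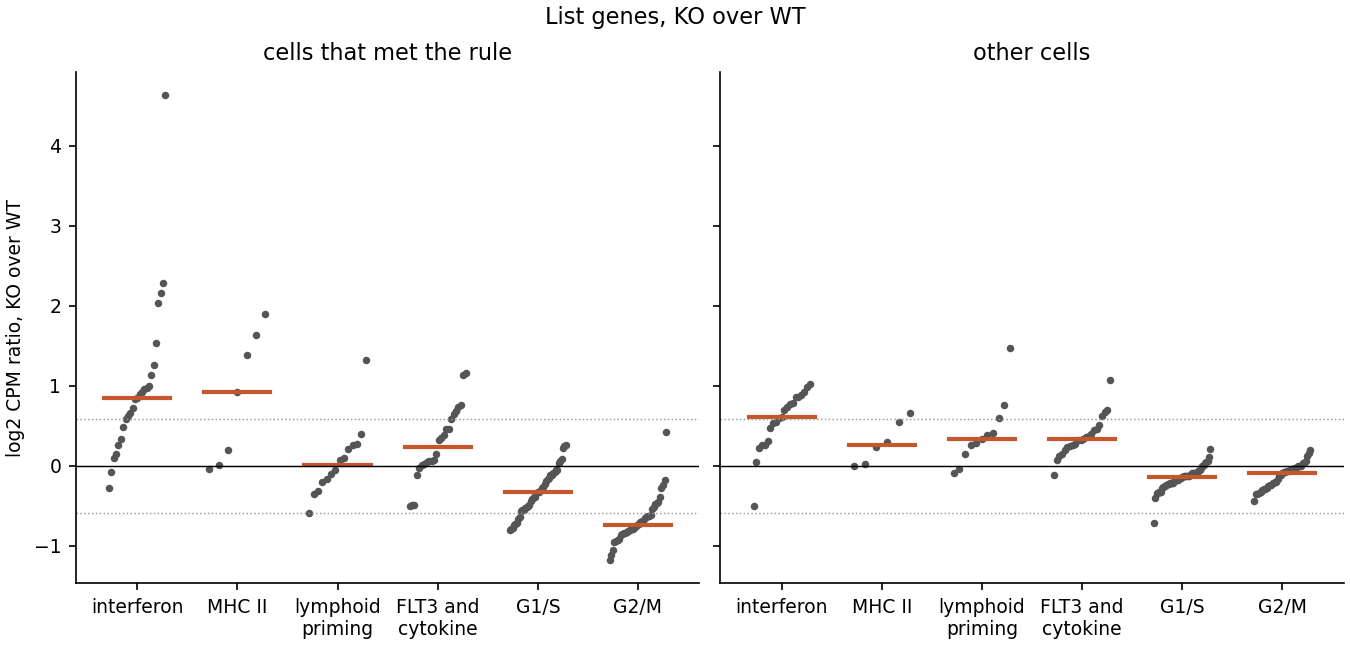
Log2 ratio of CPM, KO over WT, for each measured gene of 6 lists in the cells that met the rule (left) and in other cells (right). Each point is a gene in order of its ratio, orange lines are list medians and dotted lines mark 1.5-fold. The medians in the members are 0.84 for interferon genes, 0.92 for MHC class II, 0.01 for lymphoid priming with Dntt and Flt3 included and -0.73 for G2/M genes.

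The lists were recomputed without the small sets, where 8.61% of all genes were 1.5-fold higher and 4.84% lower. There the interferon median was 0.64 with 14 of 22 genes higher, the lymphoid priming median, Dntt and Flt3 included, 0.16 and the FLT3 and cytokine median 0.32. The MHC class II median was 0.63 with 4 of 7 genes higher, and the G2/M median -0.93 with 28 of 36 lower. Among these members at least 20 G2/M UMIs were found in 8 of 30 WT and 20 of 143 KO cells.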

How the data were processed

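The deposited matrices hold raw UMI counts per gene and barcode. Per the file headers they come from Cell Ranger 6.0.2, but the submitters' processing notes give version 3.0.1 of that tool, with GRCm38. No source used here states the annotation release. Filters left out 51 WT and 32 KO barcodes under 500 genes and then 534 and 298 over 10% mitochondrial UMIs. UMIs were summed over the chosen cells of a library and scaled to CPM. Log2 ratios have exact conditional binomial intervals, levels exact Poisson intervals and single shares Clopper-Pearson intervals, all at 95%. Where no cell met a condition, the limit is the share that 3 cells would give. The calculation was tested on simulated data. Doublets were kept. The automatic threshold of Scrublet marked 20 barcodes in WT and 88 in KO, too few in WT to be relied on, so an alternative left out the highest scores at 0.8% per 1000 barcodes.

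The members, the 24 gene lists and the alternatives were chosen with earlier results of these data known. Named were Phf6, Runx1, the rule's genes and markers, the 12 highest and 12 lowest ratios at 50 CPM or more, of KO over WT and of members over other cells, up to 4 genes per list, and the 6 at each end of the difference from other cells. The ranking excluded mitochondrial, ribosomal, haemoglobin, sex-linked and antigen receptor genes and gene models without a proper name. Other genes were chosen after their values were seen, and a few genes are not reported here. Of 32285 gene IDs 32158 were in GENCODE M21. Alternatives were a filter of 1000 genes and 5%, the highest doublet scores left out, thinning, 2 UMIs of Dntt and Flt3, Mpo below 5, TMM or median-of-ratios scaling, cells or Dntt bins weighted alike, minimums of 5 and 50 CPM and, added after seeing the data, leaving out the small sets, each gene's top cell or the rule's genes from the lists. Tools were Python 3.11.15, scanpy 1.11.5, scipy 1.17.1, numpy 2.4.6, pandas 2.3.3, matplotlib 3.10.9, R 4.3.3 and edgeR 4.0.16 (TMM factors only).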

Additional observations from a re-analysis of the deposited data

Results flagged for a closer look

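Car2, a carbonic anhydrase gene, was at 188 CPM in WT and 294 CPM in KO members, a log2 ratio of 0.64 (0.43 to 0.86). In other cells it was at 436 and 220 CPM, a ratio of -0.99. It stood out because the ratios had opposite signs. The difference was not tested across samples, since each genotype has 1 library. Of the 10 erythroid list genes measured in other cells 9 were at least 1.5-fold lower in KO, beside 0.906% of all genes. Cells with at least 2 Klf1 UMIs, none of them a member, numbered 279 in WT and 99 in KO. Their part in the difference was not tested.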

How the results depend on the processing

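The difference in share was 1.04 points after thinning and 1.08 at 2 UMIs of Dntt and Flt3, against 2.29. Genes 1.5-fold higher numbered 1062 after thinning, 845 at 2 UMIs, 133 at 50 CPM and 1190 at 5 CPM, against 441. Genes lower numbered 658, 480, 110 and 771, and 181 without each gene's top cell, against 288. Primary granule medians were -1.01 after thinning, -0.92 at 2 UMIs, -0.15 without the small sets, -0.25 with cells weighted alike, -0.76 at 50 CPM and -0.74 without Mpo, which the rule limits. Monocyte medians were -1.98, 0.40 without the sets, -1.29 with cells and -0.36 with bins weighted alike. The MHC class II median was -1.09 after thinning. The G2/M median was 0.55 after thinning, -0.32 with Mpo below 5 and -0.25 with bins weighted alike. Thinning left 13 WT cells and also reversed Cd74 (-2.08), H2-Aa (-1.49), H2-Eb1 (-1.65), H2-Ab1 (-1.30), Hist1h3c (1.40), Trim17 (2.99), S100a9 (-0.10), Hoxa9 (0.054), Ube2c (1.66), Bub1b (0.55) and Cdk1 (0.37). Without the sets Ly6c2 (1.43), Lyz2 (0.091), Slpi (0.10) and F13a1 (0.47) reversed, and at 2 UMIs S100a4 (0.49) and Lgals3 (1.56). The cause was not tested. The interferon median lay between 0.57 and 0.90 in the 13 alternatives. No paired analysis was possible because each genotype has 1 library. The 41 WT members set the precision of every ratio.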

Other observations

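Car1, another carbonic anhydrase gene of the erythroid list, had 2 UMIs in WT and 5 in KO members. Ms4a2, a chain of the mast cell IgE receptor, had 22 UMIs in 4 WT cells and 4 UMIs in 4 KO cells. Klrd1, a receptor gene of NK cells, was found in 6 of 41 WT and 12 of 156 KO members, and in the Siglech set it was at 189 and 176 CPM. Cxcr4, the marrow homing receptor, was at 38.7 and 25.2 CPM in members and at 25.8 and 30.0 in other cells. All but Cxcr4 were chosen after their values were seen.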
